A study of Taeniopygia guttata with 46 samples.

Results

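The 200 genes described here are those whose transcript levels in zebra finches stood highest in the posterior telencephalon relative to the testis. For every gene the mean level over 24 telencephalon libraries was divided by the mean level over 22 testis libraries, after adding 0.1 CPM to each mean. CPM is a gene's count scaled to a library total of 1e+06 counts. The list was drawn from 8885 genes that averaged 10 CPM or more in the telencephalon, out of 18618 genes counted in all, and the 200 with the highest ratio were taken. The difference between the tissues therefore chose these genes, and it is given below as a description, without a test.

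The libraries came from 24 adult male zebra finches (Taeniopygia guttata), a songbird, held for 5 h in air of 27, 35 or 43 °C. The labels place 27 °C below, 35 °C within and 43 °C above the thermoneutral zone, the span of air temperatures in which body temperature is held without extra metabolic heat or evaporative cooling. The telencephalon was sampled in 8 birds per temperature, and the testis in 7, 8 and 7 birds in the same order of temperatures. By the labels the same birds gave both tissues in 22 cases, and the labels name no strain, genotype or other treatment. Birds at 27 and at 43 °C are set against those at 35 °C.

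The telencephalon is the forebrain of the bird. Its posterior part holds auditory areas and motor nuclei of the song system, and its tissue is made of neurons, glia and blood vessels. The testis is made mainly of germ cells with Sertoli and Leydig cells and is known for transcribing an unusually wide range of genes, so that few genes of other tissues are silent in it. The deposited tables list the genes by Ensembl identifier alone, and 0 of the 18618 identifiers could be paired with a symbol through the gene table used here. No function or cell type is therefore attached to any gene below, the marker lists for neurons, glia, blood and germ cells could not be applied, and the labelled tissues could not be checked against their markers.

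A telencephalon library held 10201598 to 16862943 counts and a testis library 14232073 to 25440619. The telencephalon libraries averaged 13309304, 12176540 and 12661310 counts at 27, 35 and 43 °C. The labels of 1 testis sample conflict: bird T142, kept at 27 °C, is called testis in the title and source but brain in the tissue field. It was kept as testis, and 196 of the 200 genes were chosen again without it. The testis of bird T144 at 43 °C stood above the other testes in the summed level of the 200 genes, as described below.

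The 200 genes were counted in every one of the 24 telencephalon libraries, with at least 86 counts in each. Their mean levels in the telencephalon ranged from 14.6 to 3836 CPM with a median of 107 CPM, against a median of 46.1 CPM over all genes with at least 10 CPM there. 105 of the 200 genes (52.5%) had a mean of at least 100 CPM in the telencephalon, against 24.6% of the genes with at least 10 CPM. 13 genes were above 1000 CPM and 45 were under 50 CPM. The 10 most abundant genes held 31.98% of the summed telencephalon level of the list.

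In the testis the means of the same genes ranged from 0.00301 to 23.7 CPM with a median of 0.423 CPM. 54 genes reached 1 CPM there, 4 reached 10 CPM and 36 stayed under 0.1 CPM. No gene of the list was without a testis count: 111 were counted in all 22 testes and 14 in fewer than 11. In each of the 200 genes the lowest telencephalon library lay above the highest testis library, a separation that the choice of the genes favours in advance. The share of all genes with at least 10 CPM that separate in this way was not computed. The ratio of telencephalon to testis ranged from 6.62 to 11.41 on the log2 scale with a median of 7.48, and the median fold without the added 0.1 CPM was 253. These tissues are mixtures of cells, and fewer cells of a type and less RNA per cell cannot be told apart in them.

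**Figure D1:**
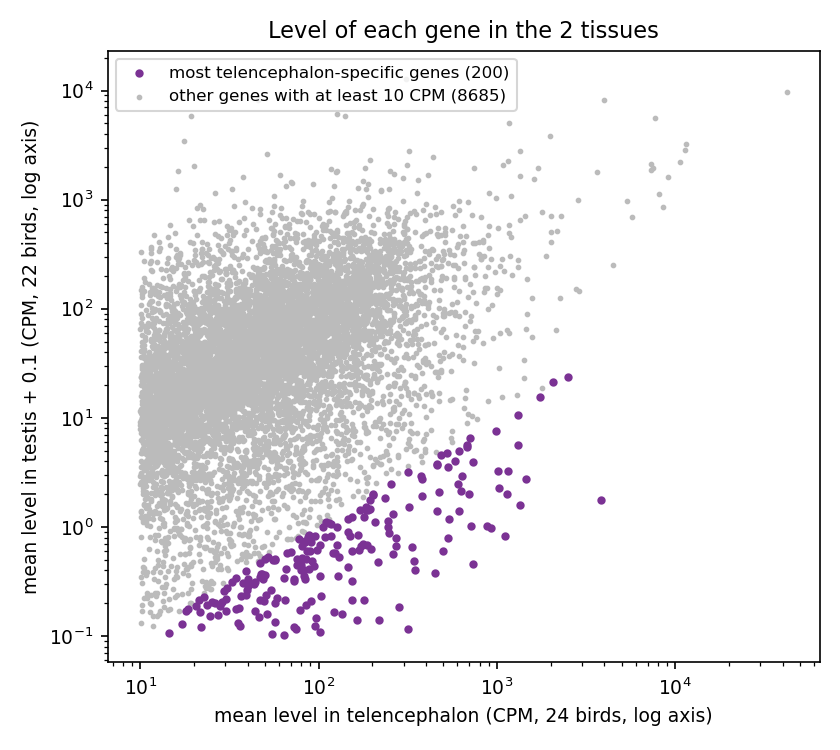
Mean level of each gene in the telencephalon (horizontal, CPM, log axis) against its mean level in the testis plus 0.1 CPM (vertical, log axis). Purple points are the 200 genes of the list and grey points the other genes with at least 10 CPM in the telencephalon. The 200 genes form the lower edge of the cloud, between 14.6 and 3836 CPM in the telencephalon.

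The highest ratio belonged to ENSTGUG00000001910. Its telencephalon level was 233 CPM in the lowest, 324 in the median and 403 CPM in the highest of 24 birds, against 0 CPM in the lowest and median testis and 0.1005 CPM in the highest. Only 5 of 22 testes held any count of it, 7 counts in all. The second, ENSTGUG00000006133, was also the most abundant gene of the list, with 3261, 3798 and 4300 CPM in the lowest, median and highest telencephalon, against 0.298, 1.52 and 4.003 CPM in the testes. It was present in all 22 testes, so its rank rests on its abundance in the forebrain rather than on absence from the testis.

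ENSTGUG00000009957, the third, had 574, 725 and 1016 CPM in the lowest, median and highest telencephalon, against 0, 0.201 and 3.396 CPM in the testes. The highest of these testis values came from bird T142, whose labels conflict. At 27 °C the testis mean of this gene was 0.589 CPM with T142 and 0.121 CPM without it.

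A few genes combined a low or moderate forebrain level with almost no testis count. ENSTGUG00000018204 had 39.8, 64.4 and 89.3 CPM in the lowest, median and highest telencephalon, and 1 count over all 22 testes, from bird T147 at 35 °C. The pooled ratio was 27428-fold, with an exact Poisson 95% interval from 4923-fold to 1.08334e+06-fold that covers counting error only. ENSTGUG00000018368 had 2 testis counts (11878-fold, interval 3288 to 98082) and ENSTGUG00000017151 had 3 (2073-fold, interval 709 to 10053). Their pooled telencephalon levels were 55.6 and 14.6 CPM. The intervals span more than 10-fold, so the pooled folds of genes this low in the testis are uncertain. The ratio that ranked the list is another measure: it adds 0.1 CPM to each mean, which limits the weight of single counts.

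Other genes of the list were readily detected in the testis and qualified through a very high forebrain level. ENSTGUG00000001697 had 1981, 2530 and 3119 CPM in the lowest, median and highest telencephalon, against 13.3, 21.2 and 48.6 CPM in the testes. ENSTGUG00000008087 had 1792, 2069.9 and 2249 CPM in the telencephalon, against 11.8, 21.5 and 29.3 CPM in the testes. Across the 200, genes with a higher telencephalon mean had a higher testis mean, with a Spearman rho across genes of 0.78, against 0.42 over all genes with at least 10 CPM. The genes share the same libraries and the rule bounds their ratio from below, so these coefficients are descriptions.

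ENSTGUG00000008087 was also the last gene inside the list, with a log2 ratio of 6.62. The gene before it was ENSTGUG00000003752, with a mean of 49.8 CPM in the telencephalon and 0.408 CPM in the testis. Just outside stood ENSTGUG00000005920, with means of 381 CPM in the telencephalon and 3.81 CPM in the testis and a log2 ratio of 6.61. The next, ENSTGUG00000008436, had means of 114 CPM in the telencephalon and 1.07 CPM in the testis. The ratios on both sides of the limit were nearly equal, so the end of the list marks no gap.

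The choice of genes was much the same at each temperature. The libraries of each temperature and bird are among those that made the list, so overlap is favoured in advance and is no independent check. With the rule applied to the birds of 1 temperature alone, 183, 188 and 181 of the 200 genes were chosen again at 27, 35 and 43 °C, and 164 were chosen at all 3 temperatures. Within single birds that gave both tissues, 73.0% to 81.5% of the 200 genes were chosen again, with a median of 78.8%. The median log2 ratio over the 200 genes within a bird ranged from 7.42 to 8.15. The testis tables hold a paired-end and a single-end column for each bird. Across the 200 genes their mean levels ranked alike, with a Spearman rho of 0.98. After 0.1 CPM was added to each mean, 99.0% of the genes lay within 2-fold. For the 36 genes under 0.1 CPM in the testis the added constant favours such agreement in advance.

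Together the 200 genes took 5.59% ± 0.187 of all telencephalon counts (SD, n = 24), against 0.0248% ± 0.00435 of all testis counts (SD, n = 22). In the telencephalon the lowest, median and highest shares were 5.17%, 5.56% and 5.76% at 27 °C, 5.28%, 5.51% and 5.87% at 35 °C, and 5.38%, 5.75% and 5.84% at 43 °C. The means were 5.55% ± 0.184 at 27 °C, 5.52% ± 0.189 at 35 °C and 5.71% ± 0.143 at 43 °C (SD, n = 8 each). The 3 ranges overlapped, and the 43 °C mean lay about 1 SD above the other means. Within the 43 °C group bird T156 stood apart at the low end, and the other 7 birds lay between 5.67% and 5.84% with a mean of 5.76%. The shares were not tested, because the genes were chosen from these libraries.

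In the testis the lowest, median and highest shares were 0.0223%, 0.0246% and 0.0287% at 27 °C, 0.0196%, 0.0226% and 0.0265% at 35 °C, and 0.0189%, 0.0248% and 0.0403% at 43 °C. The highest value was that of bird T144, and without it the 43 °C mean was 0.0237% ± 0.00283 (SD, n = 6), against 0.0261% ± 0.00680 with it (SD, n = 7). The 27 °C mean was 0.0254% with bird T142 and 0.0257% without it. The share in the testis of T142 was thus below the mean of the other testes at 27 °C.

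**Figure D2:**
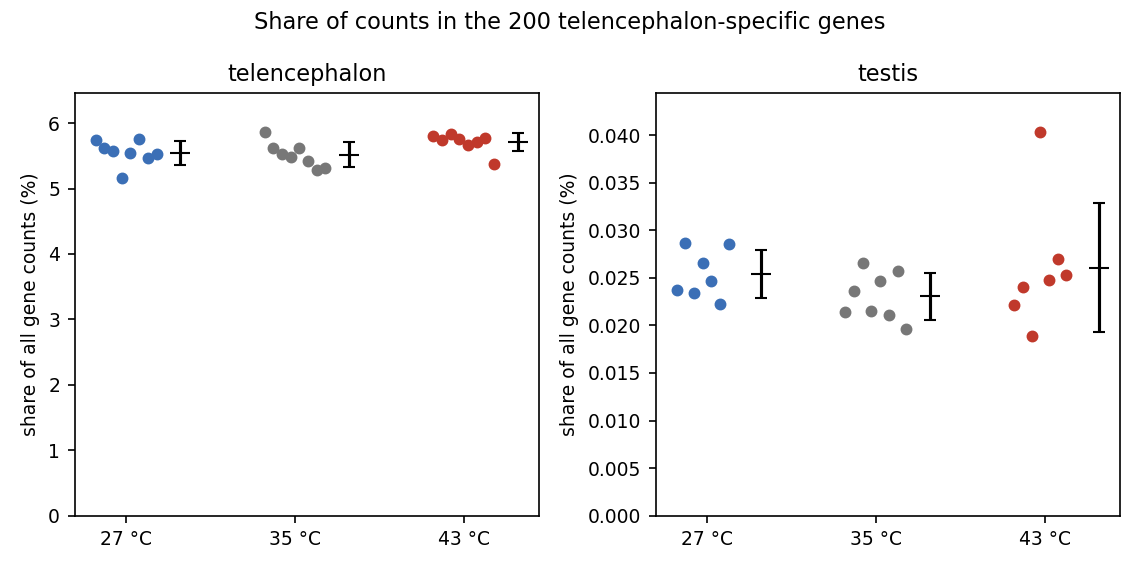
Share of all gene counts (vertical, %) held by the 200 genes in each bird at 27, 35 and 43 °C, in the telencephalon (left) and the testis (right). Points are birds, and the bar beside each group is the mean with its SD. The telencephalon shares run from 5.17% to 5.87%. The testis axis spans a far smaller range, and bird T144 at 43 °C reaches 0.0403%.

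Temperature was not used to choose the genes, and its effect on them was tested in a model of all 13254 genes with enough telencephalon counts, which included all 200. The question the design asks is how air temperature above or below the thermoneutral zone alters transcript levels in the brain. No gene of the list passed a Benjamini-Hochberg adjusted p of 0.05 in edgeR's quasi-likelihood test in any of the comparisons. At 43 against 35 °C, 0 of 200 passed, against 0.00754% of all genes tested, and the smallest adjusted p on the list was 0.371. At 43 against 27 °C, 0 of 200 passed, against 0.0226% of all genes, with a smallest adjusted p of 0.184. At 27 against 35 °C, 0 of 200 passed, against 0.0% of all genes, with a smallest adjusted p of 0.9999. A test for any difference among the 3 temperatures also called 0 of 200, against 0.00754% of all genes (smallest adjusted p 0.315 in edgeR), with 30 at an unadjusted p under 0.05, against 8.74% of all genes.

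More genes of the list had a higher than a lower mean at 43 °C. At 43 against 35 °C, 68.0% of the 200 had a positive log2 fold change, against 49.3% of all genes tested. The median log2 fold change of the list was 0.05, against 0.00 over all genes. The unadjusted p was under 0.05 for 34 of the 200, 29 of them higher at 43 °C (14.5%) and 5 lower (2.5%). Over all genes tested 9.1% had an unadjusted p under 0.05, 4.95% higher and 4.15% lower. Among genes with at least 10 CPM in the telencephalon, the level range the list was drawn from, the shares were 5.77% higher and 4.43% lower. Genes of the same libraries vary together, so these counts are descriptions and none of the single genes passed the adjusted test.

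The comparison of 43 against 27 °C gave like values, although it uses the same 43 °C birds and is no independent repeat. In it 67.5% of the 200 genes had a positive log2 fold change, against 49.5% of all genes, and the median was 0.06, against 0.00 over all genes. The unadjusted p was under 0.05 for 33 genes that were higher at 43 °C (16.5%) and 6 that were lower (3.0%), against 5.63% and 5.28% of all genes tested and 6.74% and 5.72% of genes with at least 10 CPM. In both directions together these were 39 genes, against 10.9% of all genes. At 27 against 35 °C the list showed no such lean to higher levels. 88 of 200 genes (44.0%) had a positive log2 fold change, against 50.2% of all genes, and the median was -0.01, against 0.00 over all genes. 4 genes had an unadjusted p under 0.05, against 3.38% of all genes. 2 were higher and 2 lower, against 1.66% and 1.72% of all genes, and without bird T157 at 35 °C the count was 7, against 3.58% of all genes.

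**Figure D3:**
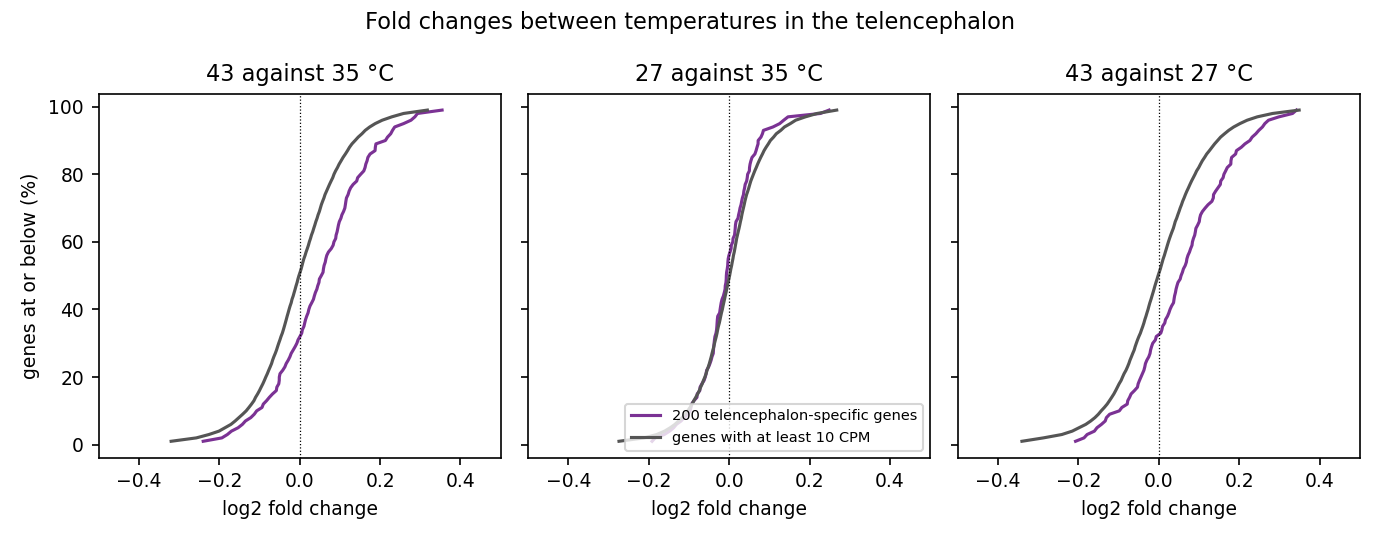
Cumulative distribution of log2 fold changes in the telencephalon for the 200 genes (purple) and for all genes with at least 10 CPM (grey), in 3 comparisons of temperatures. The horizontal axis is the log2 fold change and the vertical axis the percentage of genes at or below it. The purple curve lies to the right of the grey one at 43 against 35 °C and at 43 against 27 °C, with medians of 0.05 and 0.06, and the curves nearly coincide at 27 against 35 °C.

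The group mean was highest at 43 °C in 117 of the 200 genes (58.5%), against 34.5% of genes with at least 10 CPM. It was highest at 27 °C in 37 genes and at 35 °C in 46. The single library with the highest level came from a 43 °C bird in 112 of the 200 genes (56.0%), against 35.9% of genes with at least 10 CPM. In no gene of the list did all 8 birds at 43 °C lie above or below all 8 birds at 35 °C or at 27 °C, against 0.0225% and 0.0563% of genes with at least 10 CPM, so the count of 0 sets nothing in the list apart from that background. Leaving out each bird in turn, 21 to 41 genes were higher and 3 to 9 lower at unadjusted p under 0.05 at 43 against 35 °C, against 3.67% to 5.6% and 3.24% to 5.07% of all genes. The list's median stayed between 0.04 and 0.07. For 43 against 27 °C the counts were 27 to 41 higher and 2 to 8 lower, against 4.53% to 6.2% and 4.28% to 5.74% of all genes, with medians from 0.04 to 0.07.

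Within the list, genes with a positive log2 fold change were the majority at each level of abundance. Over all genes with at least 10 CPM the share was 49.3% at 43 against 35 °C and 49.5% at 43 against 27 °C. The share over all genes of each level was not computed. At 43 against 35 °C, 32 of 45 genes under 50 CPM, 57 of 91 genes from 50 to 200 CPM and 47 of 64 genes above 200 CPM had a positive log2 fold change. Their medians were 0.09, 0.03 and 0.06. At 43 against 27 °C the corresponding counts were 35, 56 and 44 genes, with medians of 0.08, 0.04 and 0.06.

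The gene with the smallest p at 43 against 27 °C was ENSTGUG00000000670. Its telencephalon level was 68.8, 77.4 and 97.4 CPM in the lowest, median and highest bird at 27 °C, 64.2, 81.5 and 104 CPM at 35 °C, and 87.5, 94.9 and 115 CPM at 43 °C. Every bird at 43 °C lay above 7 of the 8 birds at 27 °C, all but T155. The log2 fold change was 0.33 (SE 0.08) at 43 against 27 °C, with an edgeR adjusted p of 0.184, and 0.29 (SE 0.08) at 43 against 35 °C, with an adjusted p of 0.371. DESeq2 gave 0.33 at 43 against 27 °C with an adjusted p of 0.0336. In the testis, where it averaged under 1 CPM, the mean was 0.649, 0.530 and 0.304 CPM at 27, 35 and 43 °C.

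DESeq2 called 3 genes of the list (1.5%) at 43 against 27 °C, against 0.382% of the 16995 genes it took, with 40 at an unadjusted p under 0.05, against 9.51% of all. Beside ENSTGUG00000000670 these were ENSTGUG00000013253, with an adjusted p of 0.0444, and ENSTGUG00000004562, with 0.0477. ENSTGUG00000013253 had 362, 430.4 and 463 CPM in the lowest, median and highest telencephalon at 27 °C, 379.7, 429 and 534 CPM at 35 °C, and 456, 503 and 611 CPM at 43 °C. ENSTGUG00000004562 had 214, 238 and 258 CPM at 27 °C, 214, 237 and 261 CPM at 35 °C, and 249, 258 and 301 CPM at 43 °C. In both genes the 43 °C birds overlapped the 27 °C birds at the edge of their ranges. The edgeR log2 fold changes at 43 against 27 °C were 0.26 (SE 0.07, adjusted p 0.184) for the first and 0.17 (SE 0.05, adjusted p 0.185) for the second. For any difference among the temperatures DESeq2 called these 3 genes and ENSTGUG00000013292 (adjusted p 0.0486), 4 of 200 against 0.265% of all genes, with 32 at an unadjusted p under 0.05, against 8.03% of all. At 43 against 35 °C it called 0 of 200, against 0.053% of all genes, with 37 at an unadjusted p under 0.05, against 7.93%. At 27 against 35 °C it called 0 of 200, against 0.0% of all genes, with 5 at an unadjusted p under 0.05, against 3.16%. The genes DESeq2 took include genes with few counts, whereas every gene of the list averaged at least 14.6 CPM. The DESeq2 shares among genes with at least 10 CPM were not computed, so its shares over all genes are not a background of like level.

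ENSTGUG00000013292 had the smallest p at 43 against 35 °C. Its level was 438, 491 and 512 CPM in the lowest, median and highest telencephalon at 27 °C, 366, 487 and 517 CPM at 35 °C, and 499, 537 and 582 CPM at 43 °C. The ranges overlapped, and the lowest 35 °C bird was T157. The log2 fold change at 43 against 35 °C was 0.23 (SE 0.06; edgeR adjusted p 0.371) with all birds and 0.18 without T157 (adjusted p 0.565).

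The gene with the smallest p among those lower at 43 °C was ENSTGUG00000018204, the gene with 1 testis count. Its telencephalon level was 52.2, 67.9 and 89.3 CPM in the lowest, median and highest bird at 27 °C, 55.4, 69.8 and 79.8 CPM at 35 °C, and 39.8, 60.02 and 69.9 CPM at 43 °C. 3 birds at 43 °C lay below every other library, and the remaining 5 lay within the range of the other groups. The log2 fold change was -0.30 (SE 0.10) at 43 against 35 °C and -0.29 (SE 0.10) at 43 against 27 °C, with edgeR adjusted p of 0.408 and 0.295.

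**Figure D4:**
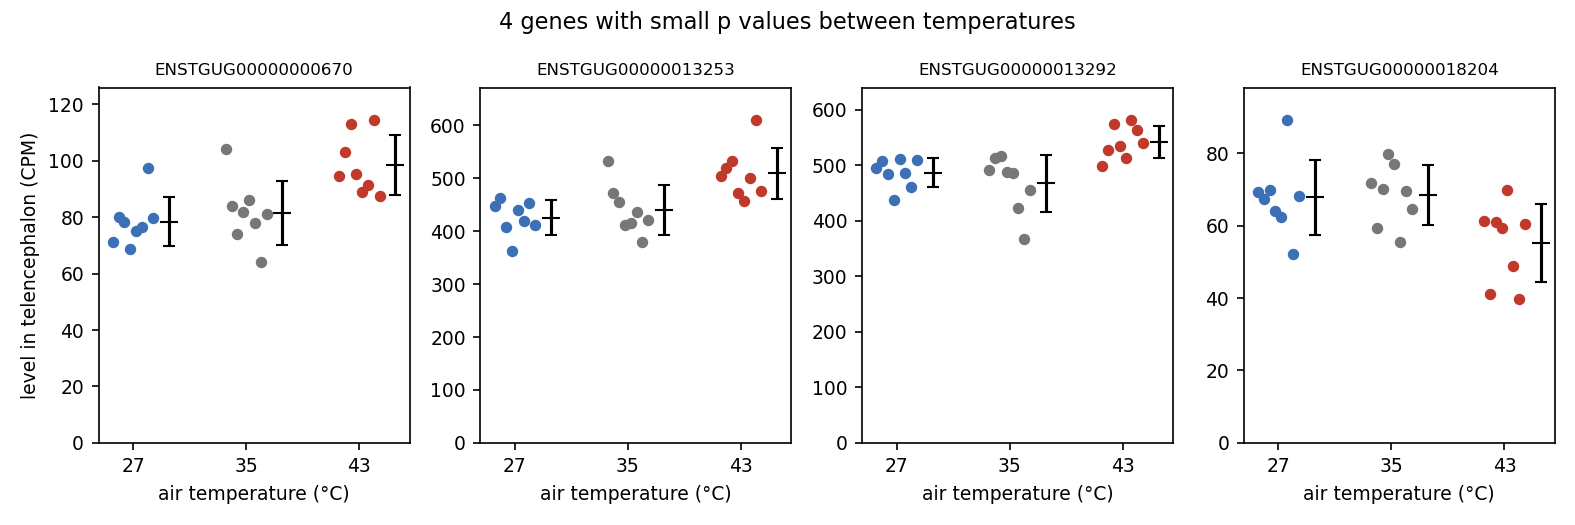
Telencephalon level (vertical, CPM) of 4 genes in each bird at 27, 35 and 43 °C. Points are birds, and the bar beside each group is the mean with its SD (n = 8). ENSTGUG00000000670, ENSTGUG00000013253 and ENSTGUG00000013292 lie higher at 43 °C and ENSTGUG00000018204 lower, with overlapping ranges in all 4.

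At 27 against 35 °C the smallest p in each direction belonged to ENSTGUG00000009051 and ENSTGUG00000013232. ENSTGUG00000009051 had 747, 1015 and 1234 CPM in the lowest, median and highest telencephalon at 27 °C, 607, 805 and 1002 CPM at 35 °C, and 703, 912 and 1294 CPM at 43 °C. Its log2 fold change was 0.35 (SE 0.12; edgeR adjusted p 0.9999) at 27 against 35 °C and 0.31 (SE 0.12; adjusted p 0.455) at 43 against 35 °C. Its level was thus lowest at the middle temperature, with overlapping ranges. ENSTGUG00000013232 had 50.6, 65.8 and 77.6 CPM at 27 °C, 58.5, 76.6 and 90.8 CPM at 35 °C, and 59.4, 65.8 and 74.2 CPM at 43 °C. Its log2 fold change at 27 against 35 °C was -0.24 (SE 0.09; edgeR adjusted p 0.9999).

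The 2 genes at the top of the list by ratio did not separate the temperatures. ENSTGUG00000006133 averaged 3804 ± 246, 3851 ± 314 and 3854 ± 306 CPM at 27, 35 and 43 °C (SD, n = 8 each), and its log2 fold change at 43 against 35 °C was 0.01 with a 95% interval from -0.10 to 0.12. ENSTGUG00000001910 averaged 333 ± 31.6, 316 ± 39.0 and 298 ± 40.1 CPM, with a log2 fold change of -0.07 at 43 against 35 °C and an interval from -0.24 to 0.09.

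Most of the genes varied little between birds of the same temperature. The between-bird SD, on log2 of CPM plus 0.5 within temperature groups, had a median of 0.170 over the 200 genes, against 0.159 over genes with at least 10 CPM. At like abundance the list varied more: the medians were 0.205 against 0.193 from 10 to 50 CPM, 0.167 against 0.130 from 50 to 200 CPM and 0.149 against 0.114 above 200 CPM. The lower and upper quartiles of the SD were 0.128 and 0.219 in the list, against 0.119 and 0.216 over genes with at least 10 CPM. The highest telencephalon library exceeded the lowest by a median of 1.61-fold over the list.

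The steadiest genes were ENSTGUG00000008527 and ENSTGUG00000004460. ENSTGUG00000008527 had 138.05, 144.9 and 159.9 CPM in the lowest, median and highest telencephalon at 27 °C, 134.8, 149.3 and 165 CPM at 35 °C, and 140.6, 153.2 and 157.8 CPM at 43 °C. ENSTGUG00000004460 had 349, 394 and 411 CPM at 27 °C, 351, 369.9 and 388 CPM at 35 °C, and 319.8, 372 and 395 CPM at 43 °C. Both held the same level at all temperatures within the spread between birds.

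ENSTGUG00000010708 was the opposite case. It varied 38.0-fold among telencephalon libraries, and its between-bird SD of 1.32 was the eighth largest among the 8885 genes with at least 10 CPM. Its level was 94.0, 1204 and 1998 CPM in the lowest, median and highest bird at 27 °C, 443, 873 and 1604 CPM at 35 °C, and 120, 725 and 3567 CPM at 43 °C. Birds T142 at 27 °C (94.0 CPM) and T141 at 43 °C (119.9 CPM) were lowest and T152 (3567 CPM) and T153 (3075 CPM), both at 43 °C, were highest. The spread within each temperature exceeded any difference between temperatures: the log2 fold change at 43 against 35 °C was 0.44 with an SE of 0.59 (edgeR adjusted p 0.861).

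The same gene was uneven in the testis. Its testis level was 0.197 CPM in the median bird at 27 °C and 7.81 CPM in T142, the bird with the lowest telencephalon level. The next highest testes were those of T156 at 43 °C, with 2.63 CPM, and T149 at 27 °C, with 1.82 CPM. T156 had 383 CPM in the telencephalon, below the 43 °C median, and T149 had 1122 CPM, close to the 27 °C median. Without T142 the testis mean at 27 °C was 0.406 CPM, against 1.46 CPM with it. The tissues of a bird are paired here by their labels, and those of T142 conflict.

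The next most variable gene was ENSTGUG00000014968, with an SD of 0.510. It had 53.3, 91.9 and 163 CPM in the lowest, median and highest telencephalon at 27 °C, 69.1, 92.5 and 152.7 CPM at 35 °C, and 62.1, 118 and 200.6 CPM at 43 °C. 7 genes (3.5%) had an SD above 0.4, against 3.5% of genes with at least 10 CPM.

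**Figure D5:**
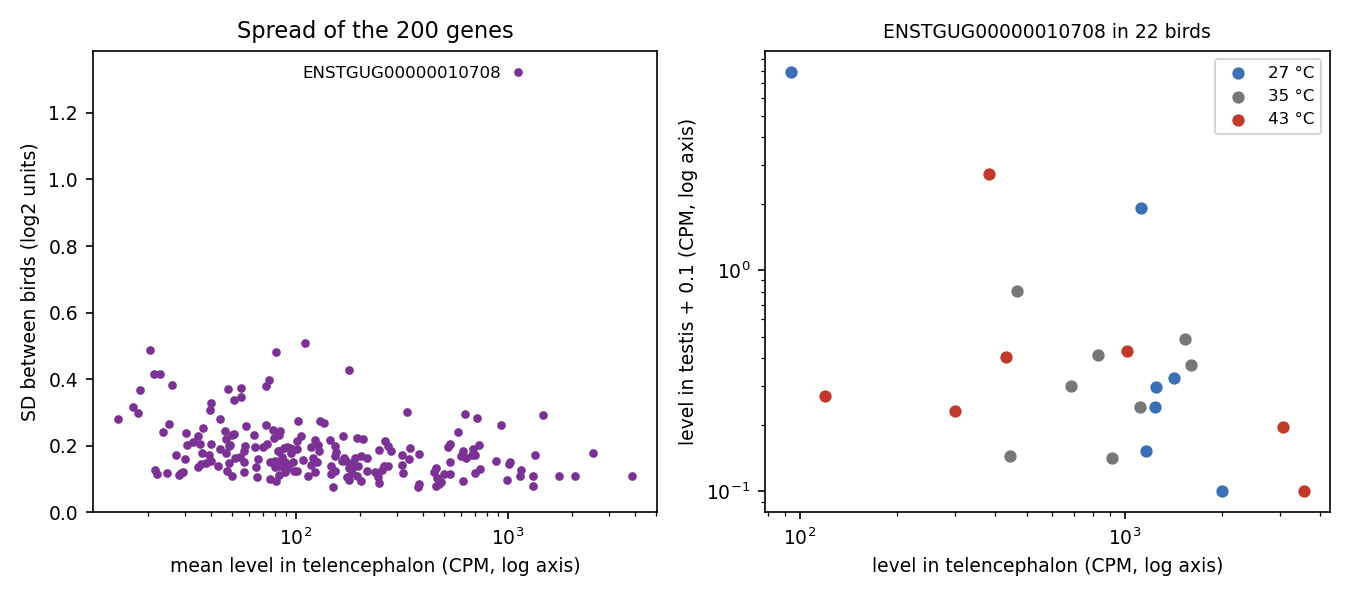
Left, between-bird SD of each of the 200 genes in the telencephalon (log2 units) against its mean level (CPM, log axis). ENSTGUG00000010708 lies alone at 1.32. Right, the level of that gene in the telencephalon (horizontal, CPM, log axis) and testis plus 0.1 CPM (vertical, log axis) of the 22 birds with both tissues, coloured by temperature. The point at the upper left is bird T142.

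Differences between birds were partly shared among the genes. After removal of the temperature means, the first principal component held 24.3% of the variance of the 200 genes, against 13.0% over genes with at least 10 CPM. With every gene scaled to unit variance, so that ENSTGUG00000010708 weighs no more than any other, it held 18.0%, against 11.9%. The median correlation between pairs of genes was 0.089, against 0.028, and 6.05% of pairs exceeded 0.5, against 2.49%. These correlations run over the same 24 libraries, and how far RNA quality or dissection adds to them was not tested.

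Average linkage on these correlations, taken at 4 sets, gave sets of 37, 9 and 7 genes and 1 large set of all the others. The sets were made from the values and have no test. The gene closest to the rest of the large set was ENSTGUG00000006208, with 124, 148.3 and 155.7 CPM in the lowest, median and highest telencephalon at 27 °C, 122, 153.2 and 193 CPM at 35 °C, and 134, 157.95 and 201.6 CPM at 43 °C. The large set was lowest in bird T148 (mean deviation -0.12 log2 units) and highest in T137 (0.16). At 43 against 27 °C, 102 of its genes had a positive log2 fold change. The share was 67.5% over the list and 49.5% over all genes tested. The large set held 31 of the 33 genes higher at an unadjusted p under 0.05, against 5.63% of all genes. At 43 against 35 °C it held 23 of the 29 such genes, against 4.95% of all genes. It contains most of the list, so most such genes would fall in it by its size alone. The median correlation between pairs of its genes was 0.163, against 0.089 over the list. Whether it differed from the other sets in its change with temperature was not tested.

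The set of 37 genes, led by ENSTGUG00000012900, consisted of more abundant genes, with a median level of 190.3 CPM against 101 CPM in the large set. Its lead gene had 229.9, 252 and 270.3 CPM in the lowest, median and highest telencephalon at 27 °C, 228, 258 and 282 CPM at 35 °C, and 217, 278 and 333 CPM at 43 °C. The set was lowest in T138 and highest in T136, both birds at 43 °C. The set of 9, led by ENSTGUG00000000713, included ENSTGUG00000010708 and was lowest in T142. ENSTGUG00000000713 itself had 49.5, 61.2 and 73.4 CPM at 27 °C, 60.9, 65.3 and 79.6 CPM at 35 °C, and 61.3, 63.1 and 69.6 CPM at 43 °C. The set of 7 was led by ENSTGUG00000016421, a weakly expressed gene with 27.5, 31.0 and 39.9 CPM at 27 °C, 24.1, 31.1 and 37.3 CPM at 35 °C, and 29.6, 33.8 and 49.9 CPM at 43 °C.

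Birds differed in how many genes they held at the extremes. T157 at 35 °C had the lowest level of all telencephalon libraries in 28 of the 200 genes, and T137 at 35 °C the highest in 21. At 43 °C, T136 and T138 each held the highest level in 25 genes and T153 in 20. T148 at 27 °C lay above the median of the other libraries in 37 genes only, with a median ratio to them of 0.919. The same counts over all genes with at least 10 CPM were not computed, so whether they are particular to the list is not known.

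Most of the genes were low in the testis, where 54 of the 200 averaged 1 CPM or more. From 160 to 187 of the 200 genes had at least 1 count in a testis library, with a median of 177.5. The median biological coefficient of variation, edgeR's estimate of the spread between birds beyond counting noise, was 11.4% for the 200 genes in the telencephalon and 44.1% for the 104 that could be tested in the testis. Over all genes tested the telencephalon had 13.7% and the testis 23.7%. Without the genes under 10 CPM the telencephalon had 10.8%, slightly below the 11.4% of the list. The testis values do not compare genes of like level, because most of the list was low there.

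The testis level of some genes differed between birds by more than 10-fold while their forebrain level was steady. ENSTGUG00000006000 had 1549, 1702 and 1839 CPM in the lowest, median and highest telencephalon at 27 °C, 1605, 1742 and 1960.3 CPM at 35 °C, and 1562, 1794 and 2088 CPM at 43 °C. Its testis values were 1.36, 3.57 and 57.9 CPM at 27 °C, 0.879, 2.97 and 14.5 CPM at 35 °C, and 0.980, 12.1 and 59.9 CPM at 43 °C. 8 of the 22 testes exceeded 10 CPM and 2 were under 1 CPM. Its between-bird SD was 0.11 log2 units in the telencephalon, against 1.90 in the testis. ENSTGUG00000002403 behaved alike, with an SD of 0.12 in the telencephalon, against 1.40 in the testis, and testis values from 0.568 CPM in T149 to 28.5 CPM in T151, both at 27 °C.

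Bird T144, kept at 43 °C, held the highest testis level of 29 of the 200 genes and had a median ratio of 1.34 to the median of the other testes. Measured for each gene from the median of the other testes, its excess came to 198 CPM, which is another measure than a difference of shares. ENSTGUG00000006000 and ENSTGUG00000007900 made up 40.2% of that excess. ENSTGUG00000007900 reached 32.3 CPM in the testis of T144, against 0.342 to 2.66 CPM in the other 6 testes at 43 °C. Without these genes the share of the list in T144 was 0.0319% of counts, still above the other testes, which lay between 0.0187% and 0.0263%. The telencephalon of T144 had a median ratio of 1.004 to the other telencephalon libraries. How often T144 held the highest testis level over all genes was not computed.

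Temperature was tested in the testis for the 104 of the 200 genes that had enough counts. The remaining 96 were too low in the testis to test. edgeR's quasi-likelihood test called 0 of 104 at 43 against 35 °C, at 27 against 35 °C and at 43 against 27 °C, where 0.0% of the 14149 genes tested were called in each. The smallest adjusted p on the list were 0.560, 0.961 and 0.728 in that order. The unadjusted p was under 0.05 for 12 genes at 43 against 35 °C, against 7.94% of all genes. Of these 6 were higher and 6 lower, against 3.74% and 4.2% of all genes. At 27 against 35 °C there were 3, against 4.33%, with 2 higher and 1 lower, against 2.46% and 1.87%. At 43 against 27 °C there were 12, against 6.17%, with 4 higher and 8 lower, against 2.87% and 3.3%. The test for any temperature called 0 of 104 against 0.0% of all genes, with 14 at an unadjusted p under 0.05 against 6.51%. DESeq2, run on all 200 without the filter used for edgeR, called 0 in each of these comparisons, against 0.0% of all genes. Its own default filter can leave genes of low level without an adjusted p, and how many of the 200 this affected was not counted. DESeq2 had 15 at an unadjusted p under 0.05 at 43 against 35 °C (7.82% of all genes), 10 at 27 against 35 °C (4.47%), 15 at 43 against 27 °C (6.27%) and 16 for any temperature (7.0%). In edgeR, 54, 55 and 54 of the 104 genes had a positive log2 fold change at 43 against 35, 27 against 35 and 43 against 27 °C.

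The count of 3 at 27 against 35 °C was 5 without T142, whose labels conflict, 5 without T151, T147 or T144, 6 without T140, 7 without T155 and 1 without T145 or T159. The share of all genes was 3.65% without T142, 4.79% without T151, 4.38% without T147 and 4.31% without T144. It was 7.45% without T155, 5.36% without T140, 3.73% without T145 and 3.46% without T159. The count of 14 for any temperature was 8 without T144 or T153 and 9 without T135 or T141, where the share of all genes was 5.18% to 5.8%. At 43 against 27 °C the 4 higher genes were 1 without T144, against 2.53% of all genes. The 8 lower genes were 4 without T156 and 5 without T136 or T153, against 2.88% to 4.19% of all genes.

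The smallest p in the testis belonged to ENSTGUG00000007900, with a log2 fold change of 2.71 (SE 0.75; edgeR adjusted p 0.560) at 43 against 35 °C and 2.41 (SE 0.78; adjusted p 0.728) at 43 against 27 °C. Without T144 these were 0.43 and 0.13, with adjusted p of 0.866 and 0.9903. ENSTGUG00000000666 was the gene with the smallest p among those lower at 43 °C than at 35 °C. Its testis level was 0.590, 0.739 and 1.67 CPM in the lowest, median and highest bird at 27 °C, 0.531, 1.082 and 2.65 CPM at 35 °C, and 0.285, 0.612 and 0.821 CPM at 43 °C. Its log2 fold change at 43 against 35 °C was -0.96 (SE 0.34; edgeR adjusted p 0.560), and it was -0.66 without T146 at 35 °C.

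ENSTGUG00000002646 had the smallest p among those lower at 43 than at 27 °C, with 0.341, 0.590 and 1.47 CPM in the lowest, median and highest testis at 27 °C, 0.426, 0.613 and 0.8598 CPM at 35 °C, and 0.122, 0.377 and 0.580 CPM at 43 °C. Its log2 fold change was -0.92 (SE 0.33; edgeR adjusted p 0.754). ENSTGUG00000009669 was lower at 27 than at 35 °C by -1.34 on the log2 scale (SE 0.64; adjusted p 0.961), and by -0.57 without T157, whose 3.37 CPM was the highest of the 35 °C testes. The ranges of the groups compared overlapped in both genes.

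Whether temperature changed a gene differently in the 2 tissues was tested as an interaction over all 46 libraries, for the same 104 genes among 12523. No gene of the list passed an adjusted p of 0.05 in edgeR, against 0.0% of all genes, and the smallest adjusted p were 0.135 at 43 against 35 °C, 0.434 at 27 against 35 °C and 0.318 at 43 against 27 °C. The unadjusted p was under 0.05 for 24, 10 and 22 genes in that order, against 9.97%, 3.39% and 7.29% of all genes. That fit took no account of the same birds giving both tissues. With the bird as a replicate block the counts were 13, 1 and 13, against 9.89%, 3.78% and 6.76% of all genes, with 0 called, against 0.0% of all genes. Both fits used the same estimate of the spread of a gene for both tissues. The list's median coefficient of variation was 11.4% in the telencephalon but 44.1% for its genes tested in the testis. The unadjusted counts are therefore descriptions and show no difference between the tissues.

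The smallest p of these belonged to ENSTGUG00000011625 at 43 against 35 °C. Its telencephalon level was 486, 541 and 660.1 CPM in the lowest, median and highest bird at 27 °C, 504, 536 and 585 CPM at 35 °C, and 432, 516 and 567.9 CPM at 43 °C. Its testis level was 0.313, 0.607 and 0.999 CPM at 27 °C, 0.124, 0.326 and 0.995 CPM at 35 °C, and 0.338, 0.973 and 3.16 CPM at 43 °C, where T144 was the highest. The log2 fold change at 43 against 35 °C was -0.05 for the telencephalon and 1.57 for the testis, each from the fit of that tissue alone. In the joint fit, which scales the libraries of both tissues together, the difference was -1.68 (SE 0.36, edgeR adjusted p 0.135). It was -1.59 (SE 0.42, adjusted p 0.347) with the bird as a replicate block.

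At 27 against 35 °C the smallest p belonged to ENSTGUG00000013232, which was lower at 27 °C in the telencephalon by -0.24 on the log2 scale and differed by 1.21 in the testis. Its testis level was 0.344, 0.715 and 1.73 CPM in the lowest, median and highest bird at 27 °C, 0, 0.308 and 0.773 CPM at 35 °C, and 0.0487, 0.342 and 0.565 CPM at 43 °C. The difference between the tissues in the joint fit was -1.46 (SE 0.37, edgeR adjusted p 0.434), and -1.49 (SE 0.45, adjusted p 0.999) with the bird as a replicate block. ENSTGUG00000000670, described above, had a difference of 1.39 (SE 0.37; edgeR adjusted p 0.318) at 43 against 27 °C, and 1.37 (SE 0.44; adjusted p 0.633) with the bird as a replicate block.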

How the data were processed

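Total RNA was made into libraries with a kit that keeps strand and selects mRNA, per the labels' protocols. Trimmomatic 0.36, HISAT2 2.1.0, featureCounts 1.6.4 and CASAVA appear in the submitters' processing notes. The build, annotation and strand setting were not given in the sources used here. Genes that overlap, lie antisense or are near copies may share counts. Raw gene counts, without normalization, were deposited in 1 table per tissue. The testis table has a paired-end and a single-end column per bird, treated here in the manner of estimated counts, although all deposited values were whole and rounding changed none. Both columns were summed per bird, and whether they come from 1 library is not stated.

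CPM used column totals. Genes were filtered with filterByExpr, scaled by TMM and tested over the 3 temperatures of a tissue with edgeR 4.0.16 (R 4.3.3), by the quasi-likelihood F test with robust dispersions, with Benjamini-Hochberg adjustment over all genes tested. Standard errors came from the F statistic. DESeq2 1.42.0, RLE scaling, no filter, only the groups compared, each testis column alone and leaving out each bird were alternatives. The interaction was also fitted with bird as replicate block, the tissues being paired by their labels. In the 22 birds with both tissues, deviations from group means correlated between tissues at 0.0439 to 0.257 (across 6896 genes). The correlation was highest with the same bird in 17 of 22. In T142, whose labels conflict, it was 0.127, against 0.254 with another bird. The others were T148 (0.0693 against 0.187), T149 (0.0439 against 0.206), T146 (0.133 against 0.146) and T154 (0.0809 against 0.163). Fits were tested on simulated counts.

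The 200 genes and all lists and tests were chosen with earlier results of these data known. Genes were named by rank: the highest ratio and level, ranks next to the limit, the smallest p per direction and comparison, the largest and smallest SD, and the lead of each covarying set. ENSTGUG00000013253, ENSTGUG00000004562, ENSTGUG00000006000, ENSTGUG00000002403, ENSTGUG00000011625, ENSTGUG00000018368 and ENSTGUG00000017151 were named after their values were seen. Marker and pathway lists needed symbols and were not applied, and no sequences are shown for the same reason. Within a tissue, each library is a separate bird.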

Additional observations from a re-analysis of the deposited data

Results flagged for a closer look

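In groups of 7 or 8 birds, a bird was picked out when its gap to the nearest other bird was large relative to the range of the group (Dixon's criterion at 95%). 20 of the groups examined met it, where 1 group in 20 would by chance, or 7.2 of them. The genes share the same birds, some were named for extreme values, and some testis groups consist mostly of zeros. The 7.2 is therefore only a rough guide.

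In the telencephalon at 27 °C, ENSTGUG00000001910 reached 403 CPM in T151, against 299.7 to 339.6 CPM in the other birds. ENSTGUG00000009957 reached 929 CPM in T155, against 622 to 765 CPM. ENSTGUG00000000670 reached 97.4 CPM in T155, against 68.8 to 80.2 CPM, and this bird was the 1 that overlapped the 43 °C group. At 43 °C, ENSTGUG00000016421 reached 49.9 CPM in T153, against 29.6 to 38.5 CPM. The share of counts in the 200 genes was 5.38% in T156, against 5.67% to 5.84%.

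In the testis at 27 °C, T142, the sample labelled brain in 1 field, had 3.396 CPM of ENSTGUG00000009957, against at most 0.227 CPM, and 7.81 CPM of ENSTGUG00000010708, against at most 1.82 CPM. ENSTGUG00000013292 reached 3.78 CPM in T159, against at most 0.682 CPM, and ENSTGUG00000006208 reached 0.535 CPM in T145, against at most 0.119 CPM.

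In the testis at 35 °C, 3 of the birds picked out were T157: ENSTGUG00000009051 at 3.16 CPM against at most 1.51 CPM, ENSTGUG00000009669 at 3.37 CPM against at most 1.18 CPM, and ENSTGUG00000012900 at 1.34 CPM against at most 0.663 CPM. T147 had 1.53 CPM of ENSTGUG00000000670, against at most 0.615 CPM, and the only count of ENSTGUG00000018204, which is 0.0663 CPM. T146 had 2.65 CPM of ENSTGUG00000000666, against at most 1.41 CPM.

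In the testis at 43 °C, the share of counts in the 200 genes was 0.0403% in T144, against 0.0189% to 0.0270%, and ENSTGUG00000007900 reached 32.3 CPM there, against at most 2.66 CPM. ENSTGUG00000001910 was found in T152 alone, at 0.1005 CPM. ENSTGUG00000013292 reached 1.598 CPM in T141, against at most 0.487 CPM, and ENSTGUG00000010708 reached 2.63 CPM in T156, against at most 0.330 CPM.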

How the results depend on the processing

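The choice of genes depended on the constant added to the means: 90.5% were kept with 0.01 CPM and 74.0% with 1 CPM, against 96.0% to 100% under the other settings tried. DESeq2 called 3 genes at 43 against 27 °C and 4 for any temperature in the telencephalon, where edgeR called 0. ENSTGUG00000000670 (log2 fold change 0.33 in DESeq2) was among them. The shares of all genes that DESeq2 called were 0.382% and 0.265% in that order. edgeR called 0 in every fit that left out a bird. The counts of genes at an unadjusted p under 0.05 ranged from 24 to 47 at 43 against 35 °C, 3 to 7 at 27 against 35 °C, 31 to 47 at 43 against 27 °C and 22 to 38 for any temperature in the telencephalon. The shares of all genes were 7.22% to 10.7%, 3.07% to 3.77%, 9.01% to 11.9% and 7.13% to 9.47% in that order. In the testis the counts ranged from 9 to 15, 1 to 7, 8 to 14 and 8 to 14 in the same order. The shares of all genes there were 6.15% to 9.9%, 3.44% to 7.45%, 5.27% to 8.45% and 5.02% to 8.18%. With the paired-end column alone the testis counts were 5, 1, 5 and 5, and with the single-end column alone 7, 1, 6 and 5, where fewer genes of the list were tested. Without a filter on low counts they were 9 at 27 against 35 °C and 20 at 43 against 27 °C, where more genes were tested. The shares of all genes are not given for the fits of a single column or without a filter, so these counts do not compare the list with other genes. DESeq2 gave 10 at 27 against 35 °C, against 4.47% of all genes. With the bird as a replicate block the interaction counts were 13, 1 and 13 at 43 against 35, 27 against 35 and 43 against 27 °C. The shares of all genes were 9.89%, 3.78% and 6.76%. The cause of the change in counts was not tested. For the genes named for the smallest p in a direction and comparison within a tissue, the direction of that change stayed the same under the alternatives run. Testis values under 1 CPM rest on few counts.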
